A study of Mus musculus with 8 samples.

Results

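Primary epidermal cells of mice with a wild-type Dlx3 gene, transduced with an adenovirus encoding the transcription factor Dlx3 (AdDlx3), were compared with cells of the same genotype given a green fluorescent protein virus (AdGFP). The libraries were chosen by their sample titles, 4 of the 8 in the series and 2 for each virus, and were paired by replicate number. Genes with at least 1 RPKM (a read level corrected for gene length and depth) in at least 2 of these 4 libraries were tested, 11589 of the 26202 in the deposited table. The groups used were wild-type cells with AdDlx3, wild-type cells with AdGFP and, to test differences from the wild-type response, Dlx3 knockout cells with AdDlx3 and Dlx3 knockout cells with AdGFP. All cells came from skin epidermis of transgenic pups at postnatal day 0 to 1, were plated 24 h before transduction, and received an adenovirus, so that no group shows untransduced cells. RNA with a poly(A) tail was sequenced. The labels give neither the virus dose, the promoter of the viral gene, the time of harvest nor the cell type in which Dlx3 was removed from the knockout pups. They also do not say whether replicates came from separate pups or cultures, so p-values cover only how far these libraries differ, which may be technical variation.

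Dlx3 belongs to the distal-less homeobox family. In mouse skin it is made in differentiating layers of the epidermis and in the hair follicle, where it is required for the hair shaft and for the inner root sheath, the tube of cells that moulds the growing hair. Epidermal cells divide in a basal layer marked by Krt5 and Krt14, move through a spinous layer marked by Krt1 and Krt10, and end as cornified cells sheathed in cross-linked proteins such as loricrin. Inner root sheath cells build their own set of keratins, Krt25, Krt27, Krt28 and Krt71, with the matrix protein trichohyalin, and the wounded or cultured epidermis makes Krt6a, Krt6b, Krt16 and Krt17.

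The promoters of the inner root sheath keratin genes are shown because these genes were close to silent with AdGFP and rose with AdDlx3. That of Serpinb7 is shown because this gene had the largest rise in the log2 value after Dlx3. Each sequence is the 250 bases before the start that RefSeq lists first for the gene (GRCm38.p6), which need not be its outermost start, 5′ to 3′ on the strand of the gene, and capitals mark TAATT and its reverse complement AATTA, the core that Dlx homeodomains are known to bind. Krt25 lies at chr11:99322952-99323201, Krt27 at chr11:99351119-99351368, Krt28 at chr11:99374904-99375153 and Krt71 at chr15:101743098-101743347, all on the minus strand, and Serpinb7 at chr1:107422439-107422688 on the plus strand. The Serpinb7 window lies inside the annotated gene (chromosome 1, 107399655 to 107452689), before an internal start, and the Krt71 window overlaps the annotated start of its gene.
Krt25: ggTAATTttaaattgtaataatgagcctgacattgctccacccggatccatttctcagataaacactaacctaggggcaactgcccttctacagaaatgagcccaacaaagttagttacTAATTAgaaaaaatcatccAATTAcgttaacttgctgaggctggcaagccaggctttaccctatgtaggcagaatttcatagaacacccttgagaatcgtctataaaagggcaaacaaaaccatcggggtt
Krt27: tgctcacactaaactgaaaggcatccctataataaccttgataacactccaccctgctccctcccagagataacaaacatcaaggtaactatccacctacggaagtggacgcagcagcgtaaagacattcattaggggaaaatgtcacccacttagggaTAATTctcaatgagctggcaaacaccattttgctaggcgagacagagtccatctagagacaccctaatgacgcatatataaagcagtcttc
Krt28: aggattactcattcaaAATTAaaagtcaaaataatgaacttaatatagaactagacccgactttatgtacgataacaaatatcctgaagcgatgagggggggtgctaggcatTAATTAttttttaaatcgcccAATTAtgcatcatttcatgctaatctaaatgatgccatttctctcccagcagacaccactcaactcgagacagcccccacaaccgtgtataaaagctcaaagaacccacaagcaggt
Krt71: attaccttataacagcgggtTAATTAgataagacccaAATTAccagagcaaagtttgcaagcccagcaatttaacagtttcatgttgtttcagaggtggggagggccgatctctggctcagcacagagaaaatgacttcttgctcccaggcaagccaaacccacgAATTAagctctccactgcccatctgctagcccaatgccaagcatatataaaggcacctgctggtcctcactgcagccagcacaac
Serpinb7: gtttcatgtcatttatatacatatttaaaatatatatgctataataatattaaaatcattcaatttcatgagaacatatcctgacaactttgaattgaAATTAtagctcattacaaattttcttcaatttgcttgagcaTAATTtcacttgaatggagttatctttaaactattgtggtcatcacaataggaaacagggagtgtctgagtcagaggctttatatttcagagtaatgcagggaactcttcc
Counting both strands and overlapping matches, so that TAATTA counts 2 times, the motif occurred 4 times before Krt25, 1 time before Krt27, 4 times before Krt28, 4 times before Krt71 and 2 times before Serpinb7. At least 1 match was present in 8 of the 13 promoters found for the 15 largest rises in the log2 value, in 14.5% of 9259 promoters of tested genes and in 25.4% of 27025 promoters over all genes. Of the 7 promoters found for the 15 largest falls, 2 held it. Every window shown here holds the motif, whereas those of Tchh, Lor, Mlf1, Cited4, Klhl29, Tmem35a and Lypd6, which also rose, held no match. The windows also differed in base composition, with 49.9% A or T before the largest rises, 46.3% before the largest falls, 39.6% before tested genes and 47.0% before all genes. These matches describe letters in short windows, and their part in the changes was not tested.

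The deposited counts of alignments were 84886903 and 91142417 with AdDlx3 and 87121603 and 90990358 with AdGFP, and 11051 to 11579 genes reached 1 RPKM in a library. Of the keratinocyte markers examined, Krt5, Krt14, Trp63, Itga6, Itgb4, Col17a1, Dsp and Cdh1 lay above 15 RPKM in all 4 libraries. Krt1 and Krt10 did not, at 0.736 and 10.7 RPKM in replicate 2 with AdDlx3, and Krt10 at 7.93 RPKM in replicate 2 with AdGFP. Trp63 was at 15.3 RPKM in replicate 2 with AdDlx3, against 51.3 to 56.6 RPKM in the other libraries. By the authors' sample sheet, batch A holds the replicate 1 libraries of all groups and batch B the replicate 2 libraries. Replicate 2 with AdDlx3 stood apart from the other 3 libraries in its keratins. All 55 keratin genes together made up 2.93% and 0.365% of the RPKM sum with AdDlx3 (replicates 1 and 2), against 7.16% and 6.38% with AdGFP. Fewer keratin-making cells and less keratin RNA per cell cannot be told apart in these bulk samples. Changes are given as log2(RPKM + 0.5) of AdDlx3 minus AdGFP with standard errors (SE), a scale on which changes of low genes appear smaller than they are. A gene was called where its adjusted p was under 0.05 in limma, fitted to all 8 libraries with the replicate number as a block.

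Dlx3 itself (chromosome 11, 95120119 to 95125296, plus strand, GRCm38) was at 237 and 782 RPKM with AdDlx3, against 1.71 and 1.77 RPKM with AdGFP. Both AdDlx3 libraries were far above both control libraries, and replicate 2 held the higher level. The change was 7.59 ± 0.42 (limma adjusted p = 0.00115). Reads of the viral and of the endogenous gene cannot be told apart. Of all genes tested, 2562 (22.1%) were called in wild-type cells, 1920 higher (16.6%) and 642 lower (5.54%) with AdDlx3. Of these, 744 rose and 442 fell at least 2-fold. The median of all genes moved by 0.22, and after median-of-ratios scaling, which sets the typical gene near 0 in every library, 740 genes rose (6.39%) and 1113 fell (9.60%), among them all 642 of the falls. Without the replicate block 282 rose (2.43%) and 45 fell (0.388%), all of them among the 2562, and without replicate 2 of AdDlx3 or of AdGFP 397 and 447 genes were called. The filter itself let in 377 genes only through the AdDlx3 libraries, 290 of them called as rises, and 66 only through the AdGFP libraries, 48 of them called as falls.

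**Figure D1:**
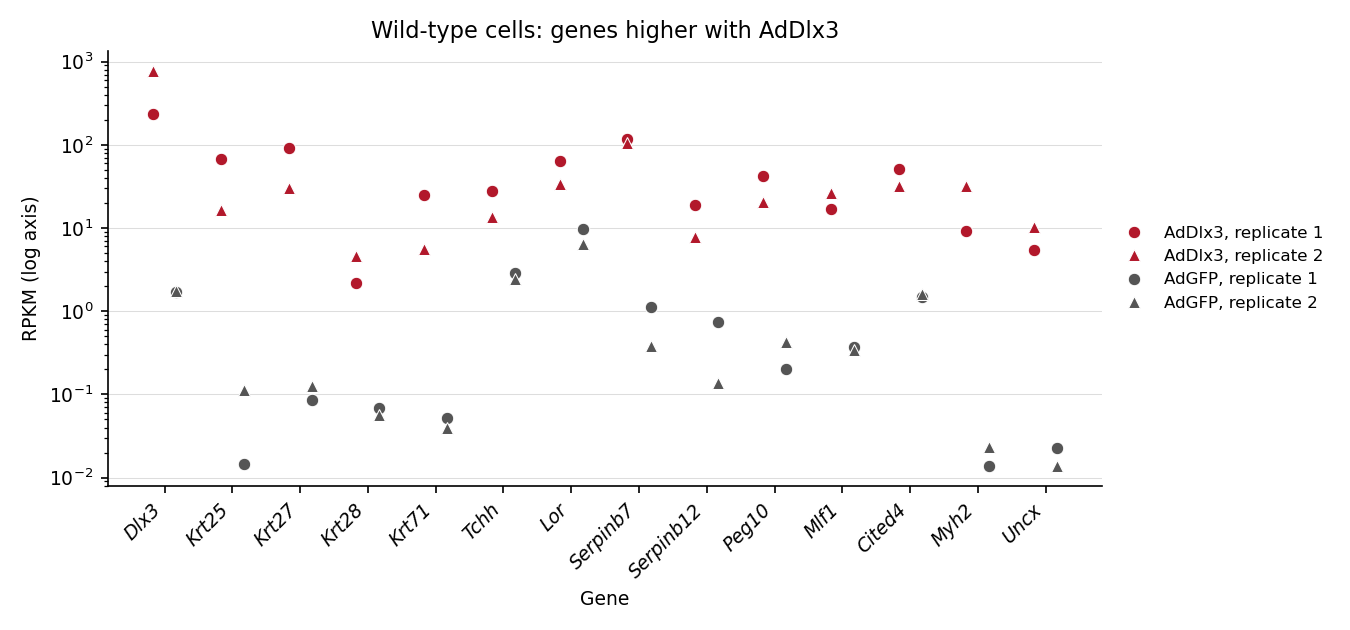
RPKM (log axis) of Dlx3 and 13 genes that were higher with AdDlx3 in wild-type cells, with 1 symbol per library (circles, replicate 1; triangles, replicate 2; red, AdDlx3; grey, AdGFP). The AdDlx3 libraries lie above the AdGFP libraries for each gene shown, with Krt25 at 67.0 and 16.3 RPKM against 0.0147 and 0.112.

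Inner root sheath genes formed the group with the largest median change. Of the 12 genes listed, 7 passed the filter on low values and 6 of these rose, against 16.6% of all genes tested, with a list median of 2.72 beside 0.22 for all genes. The filter could be passed by Krt25, Krt27, Krt28 and Krt71 only through the AdDlx3 libraries. Krt27 (chromosome 11, 99345565 to 99351104) was at 92.3 and 30.1 RPKM with AdDlx3, against 0.0849 and 0.127 RPKM with AdGFP, a change of 6.46 ± 0.55 (limma adjusted p = 0.0035). Krt25 (chromosome 11, 99315516 to 99322951) was at 67.0 and 16.3 RPKM with AdDlx3, against 0.0147 and 0.112 RPKM with AdGFP, a change of 5.90 ± 0.59. Krt71 (chromosome 15, 101733949 to 101743109), a type II partner of these type I keratins, was at 25.1 and 5.55 RPKM with AdDlx3, against 0.0520 and 0.0397 RPKM with AdGFP, a change of 4.51 ± 0.61. All 3 were high in both AdDlx3 libraries, higher in replicate 1 than in replicate 2, and near 0 in both controls. Krt28 had the other order, with 2.199 and 4.63 RPKM with AdDlx3, against 0.0696 and 0.0565 RPKM with AdGFP. Tchh, the gene of trichohyalin, the matrix protein that holds these keratins together, was at 27.5 and 13.4 RPKM with AdDlx3, against 2.87 and 2.44 RPKM with AdGFP. The change was 2.65 ± 0.21 (limma adjusted p = 0.0028). The homeobox gene Cux1 rose by 1.70 ± 0.19. These 6 calls held after scaling, without the block and without any one library. Krt26, Krt72, Krt73, Krt74 and Trps1 stayed below the filter. Together Krt25, Krt27, Krt28 and Krt71 took 0.0445% and 0.0154% of the RPKM sum with AdDlx3, far less than the keratins that the controls made. In the authors' deposited table the ratio of AdDlx3 to AdGFP was 258 for Krt27, 212 for Krt25, 81.9 for Krt71 and 145 for Serpinb7.

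Genes of the hair shaft and companion layer were mostly silent: 14 of 18 stayed below the filter, including all 13 hair shaft keratins on the list. Of the 4 tested, Selenbp1 rose by 1.603 ± 0.33 and the pilosebaceous duct keratin Krt79 fell by 1.33 (SE 0.30). Among 17 tested regulators of the follicle, 6 rose and 5 fell, beside 16.6% and 5.54% of all genes. Their median was 0.15, and 3 rose and 5 fell after scaling. The ectodysplasin receptor gene Edar was at 1 and 1.19 RPKM with AdDlx3, against 0.106 and 0.133 RPKM with AdGFP, a change of 1.36 ± 0.16 (limma adjusted p = 0.00557), and its adaptor gene Edaradd rose by 1.59 ± 0.23. Bambi, a decoy receptor for BMP signals, was at 1.56 and 1.63 RPKM with AdDlx3, against 0.155 and 0.1698 RPKM with AdGFP, a change of 1.66 ± 0.20. In both genes the libraries of a group lay close together. Both genes passed the filter only through the AdDlx3 libraries, so their groups were bound to lie apart, and Edar lay near the limit of 1 RPKM. Foxn1, the nude gene needed for hair keratinisation, went the other way and was at 5.64 and 0.510 RPKM with AdDlx3, against 17.4 and 20.3 RPKM with AdGFP, a change of -2.96 ± 0.61. Sox9, a factor of follicle stem cells and the outer root sheath, fell by 2.62 (SE 0.45). Edar, Bambi and Edaradd passed without the block, whereas Foxn1 and Sox9 did not.

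Within the Dlx and Msx family, 6 members were tested. Dlx1, its antisense gene Dlx1as and Msx2 rose and the homeodomain gene Hopx fell, beside 16.6% and 5.54% of all genes. Dlx1as was at 11.6 and 17.5 RPKM with AdDlx3, against 0.0225 and 0.0581 RPKM with AdGFP. Dlx1 was at 1.25 and 4.37 RPKM with AdDlx3, against 0.143 and 0.577 RPKM with AdGFP. The filter let in Dlx1as and Dlx1 only through the AdDlx3 libraries. The 2 genes lie on opposite strands of 1 locus, and since no source used here states whether counting used strand, their reads cannot be told apart. Msx2, a follicle homeobox gene, changed by 1.31 ± 0.31 and did not pass after scaling (adjusted p = 0.0650, limma). Dlx2 and Dlx5 did not pass, at 0.05 ± 0.19 and -0.08 ± 0.28.

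Serpins of clade B, inhibitors of intracellular and lysosomal proteases, held the largest rise after Dlx3 on the log2(RPKM + 0.5) scale, although Krt27 and Krt25 had larger ratios in the authors' deposited table. Serpinb7 was at 118 and 106 RPKM with AdDlx3, against 1.12 and 0.386 RPKM with AdGFP, a change of 6.55 ± 0.25 (limma adjusted p = 0.000558). Its AdDlx3 libraries differed little and both were far above both controls, with changes of 6.19 in pair 1 and 6.90 in pair 2. Serpinb12 was at 18.9 and 7.87 RPKM with AdDlx3, against 0.749 and 0.137 RPKM with AdGFP, a change of 3.83 ± 0.23. The filter let in Serpinb12 only through the AdDlx3 libraries. Serpinb3c and Serpinb8 rose by 2.54 ± 0.26 and 1.90 ± 0.21. In all, 6 of 13 tested members rose and 3 fell, beside 16.6% and 5.54% of all genes, with a median of 0.57. Serpinb1a fell by 1.52 (SE 0.26) although the levels of its groups overlapped, and Serpinb2, the most abundant of those named, did not pass at 0.57 ± 0.36.

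Several genes with no established place in the epidermis were among the largest rises. Peg10, an imprinted gene derived from a retrotransposon, was at 42.5 and 20.3 RPKM with AdDlx3, against 0.203 and 0.423 RPKM with AdGFP, a change of 5.21 ± 0.47. Myh2, a myosin heavy chain of fast skeletal muscle, was at 9.29 and 31.6 RPKM with AdDlx3, against 0.0138 and 0.0230 RPKM with AdGFP, a change of 5.10 ± 0.40. Both were on in each AdDlx3 library and close to 0 in each control, Peg10 higher in replicate 1 and Myh2 in replicate 2. Both passed the filter only through the AdDlx3 libraries, as did at least Mlf1 and Uncx of the genes that follow. Mlf1 changed by 4.67 ± 0.19, the transcriptional coactivator gene Cited4 by 4.34 ± 0.34, Klhl29 by 4.14 ± 0.29, Tmem35a by 3.97 ± 0.24, Lypd6 by 3.97 ± 0.18 and the homeobox gene Uncx by 3.94 ± 0.24. Myh2 did not come with other muscle genes. Of 21 contractile genes listed, 17 stayed below the filter, among them Myh1, Myh4, Acta1, Ckm, Myod1 and Myog. Casq2, a calcium store protein of muscle, fell by 3.29 (SE 0.45), and Mylpf and Tnni2 did not pass, at 0.45 ± 0.23 and -1.79 ± 0.63. Imprinted genes split: 4 of 14 tested members, Peg10 among them, rose and 4 fell, beside 16.6% and 5.54% of all genes. After scaling 1 rose and 4 fell. H19 was at 67.5 and 37.01 RPKM with AdDlx3, against 268 and 185 RPKM with AdGFP, a change of -2.14 ± 0.21, and its neighbour Igf2 changed by -1.09 ± 0.15. Peg10's neighbour Sgce changed by 0.94 ± 0.20, and did not pass after scaling (adjusted p = 0.0594, limma). In the table as a whole, 13822 genes lay under 0.5 RPKM in both AdGFP libraries, and 10 of these reached 5 RPKM in both AdDlx3 libraries. They were Krt25, Krt27, Krt71, Peg10, Myh2, Mlf1, Uncx, Dlx1as, Cdo1 and Fam124a.

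**Figure D2:**
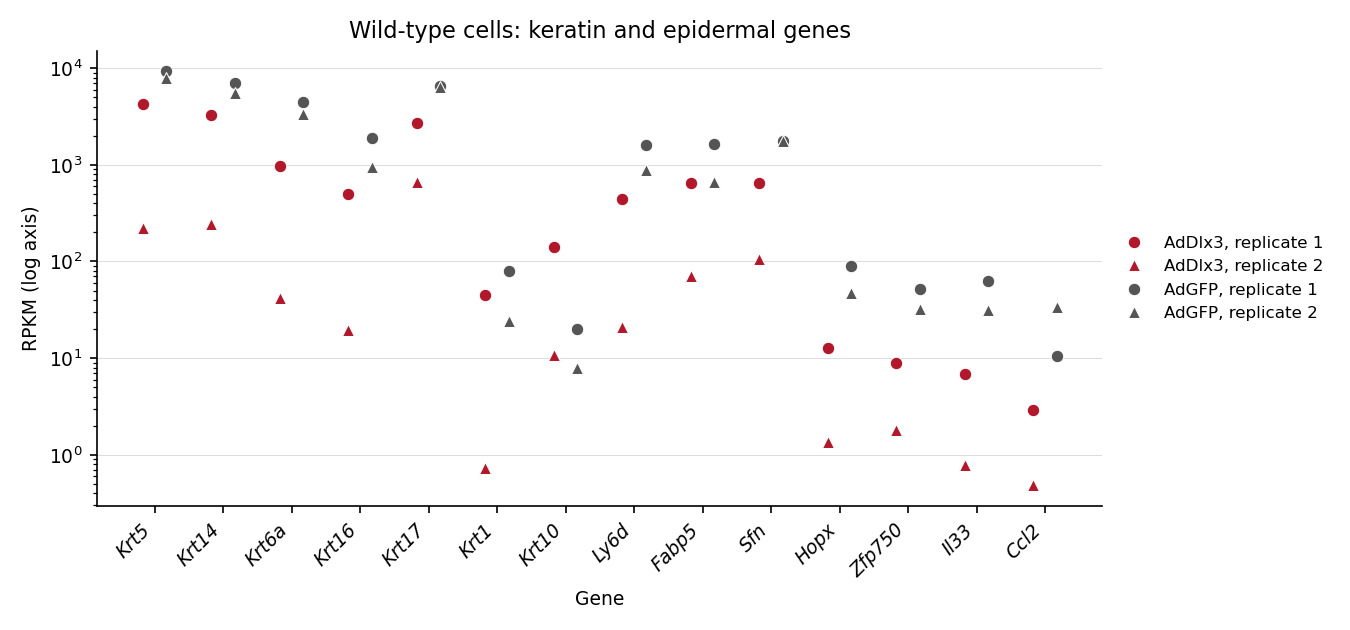
RPKM (log axis) of keratin and other epidermal genes in wild-type cells, with 1 symbol per library (circles, replicate 1; triangles, replicate 2; red, AdDlx3; grey, AdGFP). Replicate 2 with AdDlx3 is the lowest library for every gene shown but Krt10, with Krt6a at 42.2 RPKM beside 982 in replicate 1 with AdDlx3 and 4481 and 3366 with AdGFP.

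Keratins of the activated epidermis were among the largest falls. Krt6a (chromosome 15, 101689910 to 101694307) was at 982 and 42.2 RPKM with AdDlx3, against 4481 and 3366 RPKM with AdGFP, a change of -4.25 ± 0.95 (limma adjusted p = 0.0263). Krt16 was at 496 and 19.8 RPKM with AdDlx3, against 1899 and 939 RPKM with AdGFP, a change of -3.74 ± 0.79. Krt17 was at 2725 and 668 RPKM with AdDlx3, against 6465 and 6408 RPKM with AdGFP, a change of -2.25 ± 0.47. In each the AdDlx3 libraries lay below both controls and far from each other, replicate 2 being the lower. Of the 15 wound keratin and protease genes tested, 7 fell and Mmp13, a collagenase, was the 1 that rose. Among all genes 5.54% fell and 16.6% rose. The list median was -1.22 beside 0.22 for all genes, and Mmp13 did not pass after scaling. Krt6b fell by 3.71 (SE 0.74), Krt80 by 2.07 (SE 0.23), the gelatinase gene Mmp9 by 1.39 (SE 0.24) and the urokinase receptor gene Plaur by 1.22 (SE 0.22). Krt6a and Krt6b are close copies, so their reads may be split uncertainly. None of these 7 falls passed without the block, and 1 of the 7 was left without replicate 2 of AdDlx3.

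The basal keratins Krt5 and Krt14 did not pass the test. Krt5 was at 4261 and 221 RPKM with AdDlx3, against 9244 and 7903 RPKM with AdGFP, a change of -3.14 ± 1.01 (limma adjusted p = 0.0663). Krt14 was at 3295 and 244 RPKM with AdDlx3, against 7065 and 5580 RPKM with AdGFP, a change of -2.81 ± 0.81 (limma adjusted p = 0.0511, and 0.0464 after scaling). Both AdDlx3 libraries were lower than both controls, but the change was -1.12 and -5.16 in the 2 pairs for Krt5 and -1.10 and -4.52 for Krt14. Of 16 basal genes tested, 3 fell and 1 rose, beside 5.54% and 16.6% of all genes. Wnt4, a basal Wnt ligand gene, changed by -2.93 ± 0.78, and Lrig1, a stem cell inhibitor of EGF receptors, by -0.72 ± 0.14, while the plakin gene Dst changed by 0.71 ± 0.16 and did not pass after scaling (adjusted p = 0.122, limma). Of 15 hemidesmosome and laminin genes, which anchor the basal layer, the integrin gene Itga6 rose by 0.68 ± 0.17 (adjusted p = 0.155 after scaling, limma). The anchoring fibril collagen gene Col7a1 fell by 1.55 (SE 0.42), and 13 did not pass (4 fell after scaling), among them Itgb4 at -0.82 ± 0.33. In this list the share that fell was near the 5.54% of all genes, and the share that rose was below their 16.6%.

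Most spinous genes tested fell, although their keratins were not called. Krt10 was at 140 and 10.7 RPKM with AdDlx3, against 20.1 and 7.93 RPKM with AdGFP, a change of 1.59 ± 0.52 (limma adjusted p = 0.0697). Krt1, its partner, was at 44.7 and 0.736 RPKM with AdDlx3, against 79.9 and 24.0 RPKM with AdGFP, a change of -2.57 ± 0.82 (adjusted p = 0.0647, limma). For both genes the libraries of the 2 viruses overlapped, and the pair keratins did not share a direction. Of 10 spinous genes tested 8 fell and none rose, beside 5.54% and 16.6% of all genes, with a median of -1.82. Ly6d was at 448 and 21.2 RPKM with AdDlx3, against 1605 and 879 RPKM with AdGFP, a change of -3.59 ± 0.78. The fatty acid binding protein gene Fabp5 was at 648 and 70.2 RPKM with AdDlx3, against 1643 and 658 RPKM with AdGFP, a change of -2.28 ± 0.39. Sfn, the 14-3-3 sigma gene, was at 650 and 106 RPKM with AdDlx3, against 1756 and 1743 RPKM with AdGFP, a change of -2.73 ± 0.60. These 3 were lower in both AdDlx3 libraries, although replicate 1 of AdDlx3 and replicate 2 of AdGFP nearly met for Fabp5. Krtdap and Sbsn, secreted proteins of the upper layers, changed by -1.84 ± 0.37 and -1.80 ± 0.39. The 8 falls held after scaling, 0 passed without the block, and 0 passed without replicate 2 of AdDlx3.

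**Figure D3:**
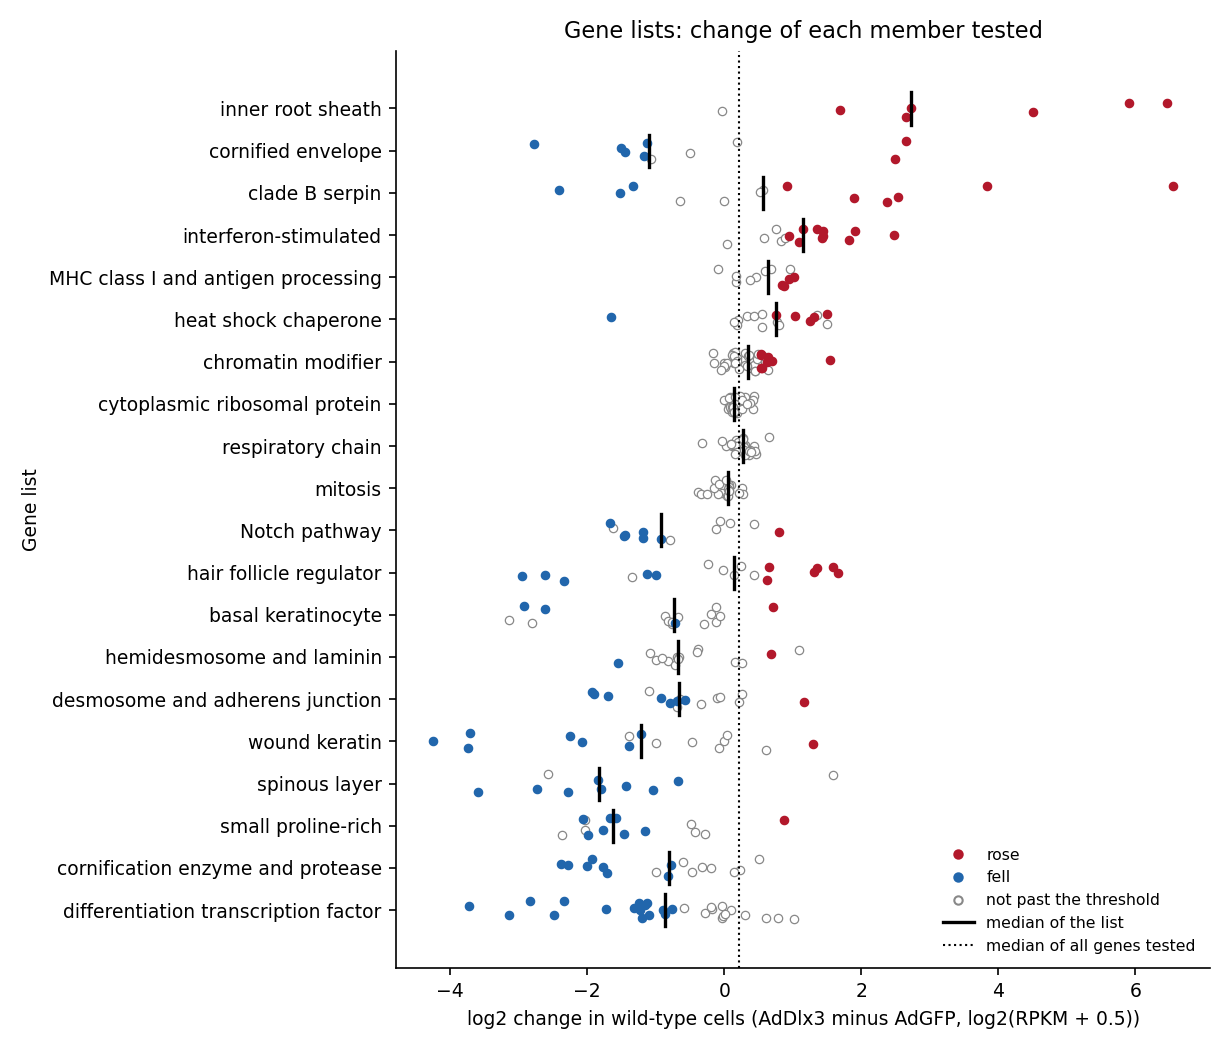
log2 change of each tested member of 20 gene lists in wild-type cells (AdDlx3 minus AdGFP), with filled points past adjusted p 0.05 and open points not, a bar at the list median and a dotted line at the median of all genes tested, 0.22. Of these 20, inner root sheath genes have the highest median, 2.72, and spinous genes the lowest of the 20 shown, -1.82.

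Genes for the proteins of the cornified envelope moved apart in RNA. Lor, the gene of loricrin, the envelope's most abundant protein, was at 63.5 and 34.1 RPKM with AdDlx3, against 9.65 and 6.45 RPKM with AdGFP. The change was 2.49 ± 0.26 (limma adjusted p = 0.0043, and 0.0202 without the block). Both AdDlx3 libraries exceeded both controls, by similar factors in the 2 pairs. Besides Lor and Tchh, 5 of the 10 members tested fell: the plakin genes Evpl and Ppl, which start the envelope, changed by -1.501 ± 0.23 and -1.18 ± 0.21, Cnfn by -1.45 ± 0.28, and Scel and Pglyrp3 also fell. The involucrin gene Ivl was at 0.671 and 0.127 RPKM with AdDlx3, against 1.36 and 1.23 RPKM with AdGFP, and did not pass (-1.06 ± 0.33, limma adjusted p = 0.0596). The 5 falls were lost without the block and without replicate 2 of AdDlx3, while both rises were kept. Small proline-rich genes, whose products cross-bridge the envelope, fell in 7 of 14 tested, with a median of -1.62. The 1 rise, Sprr2f, did not pass after scaling. Sprr1b changed by -2.07 ± 0.38 and Sprr2g by -1.99 ± 0.27, but these genes share sequence and their values are uncertain. Late cornified envelope genes showed little: of 15 tested, Lce1l rose by 0.89 ± 0.24 and 14 did not pass, with a median of -0.08. Lce1l did not pass after scaling. Beside the counts of these 3 lists stand 5.54% of all genes that fell and 16.6% that rose.

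Of 16 enzyme and protease genes that build and shed the cornified layer, 8 fell and none rose, with a median of -0.80. Klk5, a kallikrein that starts the shedding cascade, was at 3.49 and 0.427 RPKM with AdDlx3, against 13.4 and 6.79 RPKM with AdGFP, a change of -2.39 ± 0.29 (limma adjusted p = 0.00572). Its inhibitor gene Spink5 changed by -2.28 ± 0.32, its target protease gene Klk7 by -2.004 ± 0.27 and the transglutaminase gene Tgm1 by -1.72 ± 0.29. Klk6 was the 1 of these 8 that also passed without the block, with a change of -1.93 ± 0.28. Barrier lipid genes fell in 6 of 19 tested and Smpd1, a sphingomyelinase gene, rose by 1.03 ± 0.18. Cyp4f39, which makes the very long omega-hydroxy fatty acids of the barrier, changed by -2.36 ± 0.30, the ceramide synthase gene Cers3 by -1.19 ± 0.21 and the lipid transporter gene Abca12 by -1.14 ± 0.29. In the sterol and fatty acid pathway 3 of 25 genes fell, among them the synthesis enzyme genes Hmgcs1 by 0.75 and Lss by 0.82, and 11 fell after scaling. Over all genes 5.54% fell and 16.6% rose, or 9.60% and 6.39% after scaling.

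Cell junction genes divided by member. Of 16 desmosome and adherens genes tested 7 fell and Dsg2 rose, beside 5.54% and 16.6% of all genes. The plakoglobin gene Jup was at 205 and 71.1 RPKM with AdDlx3, against 450 and 344 RPKM with AdGFP, a change of -1.70 ± 0.26, and the E-cadherin gene Cdh1 changed by -0.92 ± 0.15. Dsg2, a desmosomal cadherin of basal and follicle cells, was at 32.8 and 38.9 RPKM with AdDlx3, against 15.9 and 15.4 RPKM with AdGFP, a change of 1.17 ± 0.14. Tight and gap junction genes fell in 6 of 16, against 5.54% of all genes, and Cldn7 was the 1 that rose. Cldn7 was at 18.03 and 40.6 RPKM with AdDlx3, against 2.19 and 3.11 RPKM with AdGFP, a change of 3.15 ± 0.24 (limma adjusted p = 0.00278, and 0.0198 without the block). Its relatives Cldn1 and Cldn4, claudins of the epidermal barrier, changed by -2.38 ± 0.54 and -2.26 ± 0.52. S100 genes of the epidermal cluster split, with 3 of 12 higher and 2 lower, beside 16.6% and 5.54% of all genes. After scaling 2 were higher and 6 lower. S100a1 changed by 1.36 ± 0.19, S100a13 by 1.24 ± 0.15 and S100a8, an inflammatory alarmin, by -0.74 ± 0.19.

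Transcription factors of epidermal differentiation fell in 16 of 29 tested and none rose, against 5.54% of all genes that fell, with a median of -0.86. The count of falls was 16 after scaling as well, 2 without the block and 3 without replicate 2 of AdDlx3. Hopx was at 12.7 and 1.37 RPKM with AdDlx3, against 89.5 and 47.7 RPKM with AdGFP, a change of -3.73 ± 0.43. Zfp750 (chromosome 11, 121510978 to 121519333), an activator of late differentiation, was at 8.98 and 1.79 RPKM with AdDlx3, against 51.9 and 31.9 RPKM with AdGFP, a change of -3.14 ± 0.32 (limma adjusted p = 0.0043). In both genes every AdDlx3 library was under every control. Cebpa changed by -1.25 ± 0.18 and Ets1, which passed without the block, by -1.24 ± 0.17. Grhl3, Ovol1, Prdm1, Vdr, Cebpb, Barx2, Pou2f3, Pou3f1, Tfap2a and Rxra were among the others that fell. The Kruppel-like factors that open the barrier programme did not pass, with Klf4 at 69.6 and 84.4 RPKM with AdDlx3, against 68.0 and 75.5 RPKM with AdGFP, and Klf5 changed by -0.04 ± 0.14. Among AP-1 genes 2 of 9 fell, Fosl2 by 1.28 (SE 0.21) and Junb by 0.98 (SE 0.20).

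Of 13 Notch pathway genes 6 fell and Maml1 rose, beside 5.54% and 16.6% of all genes, with a median of -0.93. Maml1 did not pass after scaling. The target Hes1 was at 21.1 and 9.19 RPKM with AdDlx3, against 47.1 and 44.2 RPKM with AdGFP, a change of -1.67 ± 0.26. Nrarp, a feedback target, was at 12.2 and 8.66 RPKM with AdDlx3, against 31.4 and 26.8 RPKM with AdGFP, a change of -1.45 ± 0.16. Both AdDlx3 libraries were below both controls for each target. The receptor genes Notch2 and Notch3 and the ligand gene Jag1 fell as well, Notch2 by 0.93 (SE 0.18), and Notch1 did not pass at -0.80 ± 0.29. BMP and activin genes divided into 5 higher and 4 lower of 23, beside 16.6% and 5.54% of all genes. After scaling 3 were higher and 4 lower. The ligand gene Bmp2 was at 9.82 and 10 RPKM with AdDlx3, against 3.53 and 3.39 RPKM with AdGFP, a change of 1.40 ± 0.17, whereas the activin subunit gene Inhba was at 16.2 and 10.5 RPKM with AdDlx3, against 51.6 and 61.5 RPKM with AdGFP, a change of -2.07 ± 0.25. Bmp2 and Inhba passed without the block and after scaling. Of 25 Wnt genes 5 rose, including the receptor gene Fzd1 (1.08 ± 0.15) and the nuclear factor gene Tcf7l2 (1.10 ± 0.15), and 3 ligand genes, Wnt4, Wnt7a and Wnt10b, fell. The share that rose was near the 16.6% of all genes, and after scaling 3 rose and 6 fell. In the EGF receptor family 4 of 13 fell, against 5.54% of all genes, and Spry2, a feedback inhibitor, rose by 1.56 ± 0.20. The ligand genes Epgn and Nrg1 changed by -2.54 ± 0.41 and -1.47 ± 0.22, and Egfr did not pass at -0.33 ± 0.20.

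Most calls among inflammatory genes were falls, and most interferon-stimulated genes tested rose. Il33, an epithelial alarmin of the IL-1 family, was at 6.88 and 0.777 RPKM with AdDlx3, against 62.9 and 31.6 RPKM with AdGFP, a change of -3.88 ± 0.33 (limma adjusted p = 0.0035). The monocyte chemokine gene Ccl2 was at 2.93 and 0.485 RPKM with AdDlx3, against 10.6 and 34.1 RPKM with AdGFP, a change of -3.42 ± 0.84. Saa3, an acute phase gene, moved the other way, at 126 and 24.8 RPKM with AdDlx3, against 4.18 and 4.19 RPKM with AdGFP, a change of 3.59 ± 0.56. None of these 3 passed without the block. Of 7 IL-1 family genes tested Il33 and Il1a fell. Of 15 chemokine and inflammation genes Ccl2, Ccl20 and Ptgs2 fell and Saa3 rose. Beside these counts stand 5.54% of all genes that fell and 16.6% that rose. Interferon-stimulated genes rose in 10 of 15 tested and none fell, with a median of 1.16, against 16.6% and 0.22 for all genes. Irf7, the amplifier of the response, was at 24.2 and 13.2 RPKM with AdDlx3, against 4.83 and 1.55 RPKM with AdGFP, a change of 2.48 ± 0.41. Stat2 was at 24.95 and 26.6 RPKM with AdDlx3, against 9.77 and 8.77 RPKM with AdGFP, a change of 1.43 ± 0.24. Both were higher in each AdDlx3 library. Both viruses are adenoviruses, their doses are not given, and the part of virus load was not tested. The RNA sensor gene Ddx58 changed by 1.44 ± 0.23 and Isg15 by 1.91 ± 0.52. After scaling 4 of the 15 rose, without the block none did, and without replicate 2 of AdDlx3 1 did. In antigen presentation 4 of 12 genes rose, against 16.6% of all genes, and none did after scaling. H2-D1 rose by 1.02 ± 0.24 and Tap1 by 0.85 ± 0.22.

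None of 20 mitotic genes was called (smallest limma adjusted p = 0.320), with Mki67 at 23.1 and 20.1 RPKM with AdDlx3, against 14.8 and 27.1 RPKM with AdGFP. Among 23 replication and G1 to S genes the cyclin genes Ccnd2 and Ccne2 rose, by 1.01 ± 0.17 and 0.96 ± 0.17, also after scaling. The share that rose was below the 16.6% of all genes. None of 43 ribosomal protein genes and none of 28 respiratory chain genes was called, with medians of 0.15 and 0.27. Chromatin genes rose in 9 of 39, near the 16.6% of all genes, and in 1 after scaling, the genome organiser gene Satb1, which changed by 1.54 ± 0.24. Chaperone genes rose in 5 of 17, against 16.6% of all genes, in 1 after scaling and in none without the block. Hspa8 was at 1567 and 3168 RPKM with AdDlx3, against 1055 and 1128 RPKM with AdGFP, the largest gain in mean RPKM of any gene named by the rule, and changed by 1.03 ± 0.23, but did not pass after scaling (adjusted p = 0.0739, limma). The small heat shock gene Hspb1 was at 1452 and 815 RPKM with AdDlx3, against 3305 and 3516 RPKM with AdGFP, a change of -1.65 ± 0.29. Hspa1a did not pass at 1.497 ± 0.56, with 146 and 765 RPKM with AdDlx3, against 118 and 119 RPKM with AdGFP. Other large gains in mean RPKM were the superoxide dismutase gene Sod1 (1.55 ± 0.19), the zinc transporter gene Slc39a6 (2.01 ± 0.13), Calu, Gstp1, Spint2 and Stip1. Of these, Gstp1, Spint2 and Stip1 did not pass after scaling (adjusted p from 0.0916 to 0.112, limma). Glucose transport fell at Slc2a1, which was at 131 and 49.2 RPKM with AdDlx3, against 395 and 287 RPKM with AdGFP, a change of -2.06 ± 0.22. On its list 1 of 18 genes rose and 3 fell, beside 16.6% and 5.54% of all genes. Of 23 p53 targets 5 rose, against 16.6% of all genes, and 4 fell, a balance that turned to 1 and 6 after scaling, Cdkn1a and Mdm2 not passing at 0.37 ± 0.21 and 0.36 ± 0.20, and of 21 stress response genes Slc7a11 alone rose and did not pass after scaling (adjusted p = 0.0757, limma).

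Matrix genes that respond to YAP and to tension fell in 7 of 20 tested and none rose, beside 5.54% and 16.6% of all genes. Without the block 4 of these falls held. The matricellular gene Ccn2 was at 33.99 and 21.4 RPKM with AdDlx3, against 75.6 and 124 RPKM with AdGFP, a change of -1.82 ± 0.33. Timp3, a protease inhibitor of the matrix, was at 24.1 and 24.6 RPKM with AdDlx3, against 76.9 and 58.7 RPKM with AdGFP, a change of -1.45 ± 0.18. Adam12 changed by -3.12 ± 0.50 and Amotl2 by -1.03 ± 0.15, and Ccn1 did not pass at -0.06 ± 0.22. Among uroplakin and simple epithelial genes 5 of 8 fell, with Upk1b at -2.38 ± 0.24 and Mslnl at -3.62 ± 0.35, and Krt18 and Krt19 rose by 0.81 ± 0.19 and 1.52 ± 0.21, Krt18 not passing after scaling (adjusted p = 0.102, limma). Retinoid genes fell in 5 of 13, against 5.54% of all genes. Changes were -3.10 ± 0.28 for Crabp2, a retinoic acid carrier, and -2.34 ± 0.28 for the retinol dehydrogenase gene Rdh12. Dhrs3 rose by 1.01 ± 0.24 and did not pass after scaling (adjusted p = 0.0848, limma). Other large falls were those of Tuba8 (-3.67 ± 0.64), Prnd (-3.35 ± 0.82), Thbd (-3.20 ± 0.36) and Upk3bl (-3.15 ± 0.72), and the annexin genes Anxa1 and Anxa2 changed by -0.97 ± 0.18 and -0.77 ± 0.17. None of the 15 largest falls passed without the block, whereas 13 of the 15 largest rises did.

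**Figure D4:**
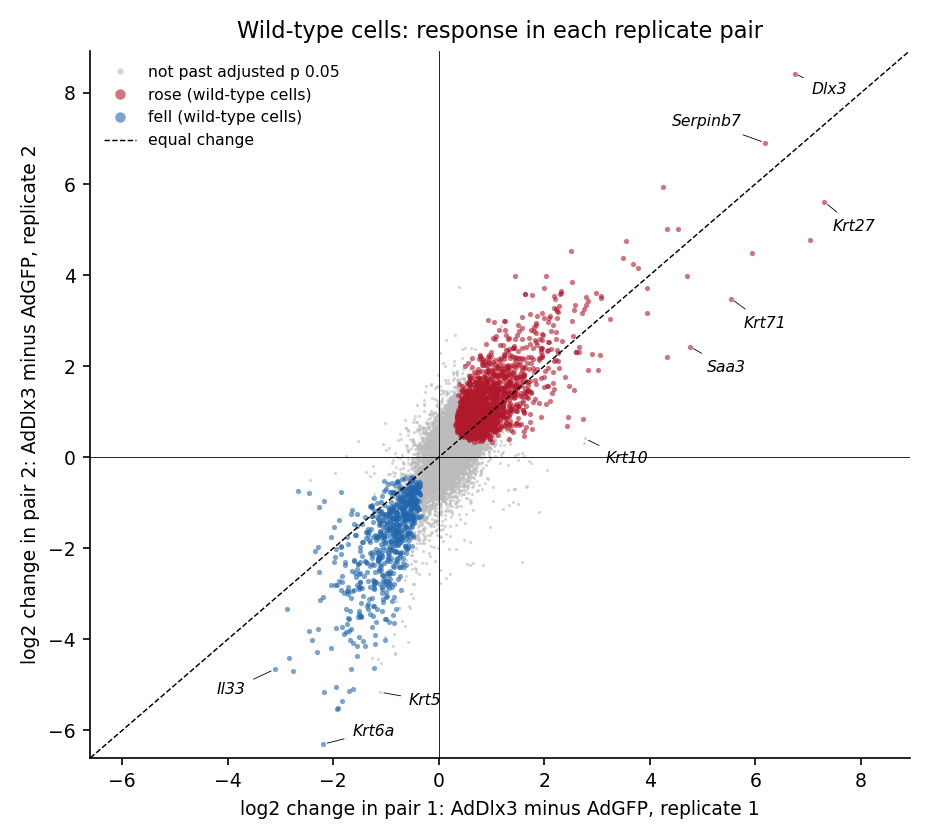
log2 change of each of the 11589 genes in the pair of replicate 2 libraries against the pair of replicate 1 libraries of wild-type cells; red points rose, blue points fell and grey points were not called. Genes that fell lie mostly below the line of equal change, with a median of -1.62 in pair 2 beside -0.88 in pair 1.

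The 2 replicate pairs gave responses of unequal size. Across genes the responses of pair 1 and pair 2 had a Pearson r of 0.758 and a Spearman rho of 0.632, with SDs of 0.557 and 0.891 and medians of 0.23 and 0.20; the genes are not independent replicates and no test is attached. Falls were larger in pair 2 for 592 of the 642 genes, with medians of -0.88 in pair 1 and -1.62 in pair 2. Rises were larger in pair 2 for 1401 of the 1920 genes, with medians of 0.75 and 0.99. The inner root sheath keratins Krt25, Krt27 and Krt71 were among the exceptions. Changes in pairs 1 and 2 were 7.31 and 5.61 for Krt27 and 5.54 and 3.49 for Krt71. Krt28 was not an exception and had its larger rise in pair 2. A virus-by-replicate term over both genotypes, tested after the data were seen, was called for 1920 genes (16.6%), the same number as the rises by coincidence, with 751 coefficients positive and 1169 negative. Krt5 (adjusted p = 0.0039), Krt14 (0.0055) and Krt6a (0.0052) were among these genes in limma, and Il33 (0.146) and Zfp750 (0.116) were not. The Dlx3 level of wild-type cells with AdDlx3 was 782 RPKM in replicate 2 beside 237 RPKM in replicate 1, and its part in the unequal responses was not tested. Batch, virus level and culture cannot be told apart with 1 library of each kind per batch.

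**Figure D5:**
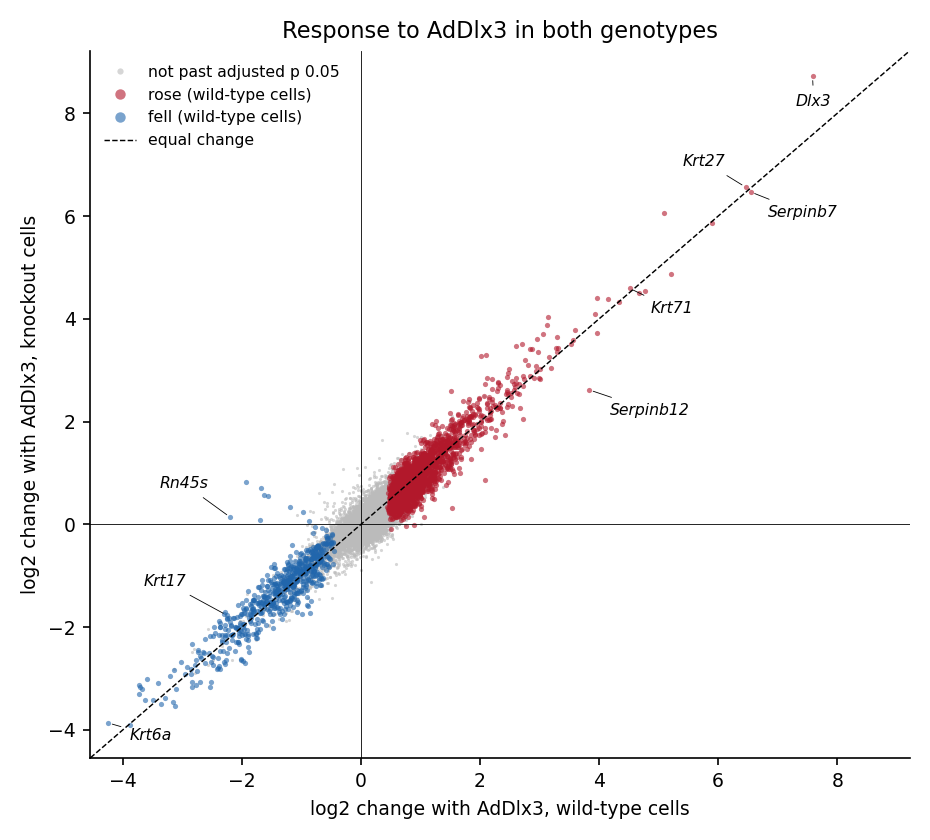
log2 change with AdDlx3 in knockout cells against that in wild-type cells for the 11589 genes, coloured by the call in wild-type cells (red, rose; blue, fell; grey, not called). Most genes lie along the line of equal change, and a group that includes Rn45s, at -2.198 in wild-type and 0.14 in knockout cells, lies above it.

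The response of wild-type cells was set against that of knockout cells, which shares no library with it but shares both batches. In knockout cells 2119 genes rose (18.3%) and 659 fell (5.69%). Of these calls 1997 were shared in the same direction, 78.0% of the wild-type calls and 71.9% of the knockout calls, and the changes had a Pearson r of 0.929 across genes. The difference of the 2 responses was called for 0 genes (0%, smallest limma adjusted p = 0.999), with 139 genes at an unadjusted p under 0.05. That number is below what chance alone would give at this threshold. The spread in this fit includes responses that differed between replicates. With a virus-by-replicate term, 1023 genes had an unadjusted p under 0.05 in limma and 0 were called. So 0 calls do not show that the responses were equal. Dlx3 itself changed by 7.59 in wild-type and 8.72 in knockout cells, a difference of -1.13 ± 0.59. Krt27 changed by 6.46 and 6.57, Serpinb7 by 6.55 and 6.47, and Krt6a by -4.25 and -3.87, in wild-type and knockout cells. Serpinb12 had a larger rise in wild-type cells, 3.83 beside 2.62, a difference of 1.22 ± 0.33 that did not pass adjustment.

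Of the 2562 genes called in wild-type cells, 12 had the opposite sign in knockout cells. Those named here were picked after their values were seen, and no difference between the genotypes passed adjustment. Rn45s, the precursor of ribosomal RNA, was at 351 and 510 RPKM with AdDlx3, against 1774 and 2130 RPKM with AdGFP, in wild-type cells. In knockout cells it was at 436 and 419 RPKM with AdDlx3, against 424 and 355 RPKM with AdGFP. The wild-type AdGFP libraries were thus the high ones, and the other 6 lay close together. The change was -2.20 ± 0.21 in wild-type cells, with a limma adjusted p of 0.00402, and 0.14 ± 0.21 in knockout cells, and the difference, -2.34 ± 0.30, had an unadjusted p of 0.000147 in limma. The replication-dependent histone genes H3c11 and H4c2 and the RNA gene Rmrp, whose transcripts carry no poly(A) tail, changed by -1.19, -0.97 and -1.70 in wild-type and by 0.34, 0.25 and 0.08 in knockout cells. Rmrp was uneven in wild-type cells with AdGFP, at 12.75 and 2.09 RPKM. Mir6236 changed by -1.68 and 0.72, Mir6240 by -1.63 and 0.57 and Lars2 by -1.56 and 0.55. As for Rn45s, both wild-type AdGFP libraries held the highest levels of each, so these need not be independent changes. The 12 also held Nrg2, with changes of -0.87 and 0.06. Sh3bgrl changed by 0.76 and -0.03 and Tmsb15l by 0.89 and -0.008. The part of poly(A) selection in these values was not tested.

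Marker genes of cells other than keratinocytes were also examined. Melanocyte genes were present in all libraries, with Pmel at 129 and 83.7 RPKM with AdDlx3, against 125 and 99.6 RPKM with AdGFP. Of these, 1 of 11 tested, Gpnmb, rose by 0.71 ± 0.13 and did not pass after scaling (adjusted p = 0.0832, limma). The summed level of the 11 was 479 and 370 RPKM with AdDlx3, against 428 and 357 RPKM with AdGFP. Of 7 fibroblast markers tested 2 rose and 3 fell: Col1a2 was at 13.1 and 6.76 RPKM with AdDlx3, against 4.61 and 2.38 RPKM with AdGFP, and Col1a1 at 2.72 and 0.995 RPKM with AdDlx3, against 7.23 and 3.18 RPKM with AdGFP. The summed level of all 11 fibroblast markers was 72.8 and 54.2 RPKM with AdDlx3, against 52.1 and 52.7 RPKM with AdGFP, and Lum, Pdgfra, Pdgfrb and Twist2 stayed below the filter. Of 5 Schwann cell markers Ngfr rose by 1.36 ± 0.30, of 2 Merkel cell markers Krt18 rose, and of 3 sebocyte markers Plin2 and Cidea fell. The 3 immune, 3 endothelial and 2 muscle markers tested had no call, and no erythroid or fat cell marker passed the filter. The part of these cells in the changes above was not tested. Beside the marker counts stand 16.6% of all genes that rose and 5.54% that fell.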

How the data were processed

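RNA with a poly(A) tail from 8 libraries was sequenced, and the authors deposited RPKM values per gene in 1 table, with their own ratio and log2 values per comparison. Per the submitters' processing notes, bcl2fastq 2.20.0.422, TopHat2 2.1.1 and Partek were used with mm10; no source used here names the annotation, the counting rule or whether strand was used. No read counts per gene were used, so no count test was run. Here log2(RPKM + 0.5) was fitted in limma 3.58.1 (R 4.3.3), moderating variances along a trend with intensity, over all 8 libraries as 4 groups with the replicate number as a block (3 residual degrees of freedom). Genes needed 1 RPKM in 2 of the 4 wild-type libraries, p-values were adjusted by Benjamini-Hochberg over 11589 genes, and 0.05 was the threshold. Replicate numbers pair the samples because the authors' sample sheet ties them to batches. Correlations of same-numbered deviations ran from 0.34 to 0.872, with 0.373 between wild-type AdDlx3 and wild-type AdGFP. The highest, 0.872 and 0.787, were between genotypes under the same virus. Named genes were Dlx3, and, among called genes whose groups did not overlap and leaving out predicted models, the 15 largest log2 rises and falls and the 10 largest rises and falls in mean RPKM. From each list the first 2 measured members and up to 4 with the smallest adjusted p were added; others are named as members of a count, and a few genes that the rule picks are not reported here. The genes, lists and comparison were chosen with earlier results of these data known. The fit was tested on simulated data. Alternatives changed the block, scaling, pseudocount, filter, trend and libraries. Promoters came from RefSeq by gene symbol (GRCm38.p6), the first listed start of each gene, and those on chromosome 18 were left out.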

Additional observations from a re-analysis of the deposited data

Results flagged for a closer look

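The response to AdDlx3 differed between replicate 2 (batch B) and replicate 1 (batch A), over both genotypes, for 1920 genes at a limma adjusted p under 0.05, with 1169 lower and 751 higher coefficients in replicate 2. An unadjusted p under 0.05 was found for 4160 genes. This fit has 2 residual degrees of freedom, and the test of its virus-by-replicate coefficient was added after seeing the data. The batches differ in Dlx3 level in wild-type cells, and the part of that level was not tested.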

How the results depend on the processing

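The count of genes called in wild-type cells, 2562 with the replicate block, was 327 (282 higher, 45 lower) without the block. It was 5744 (4322 higher, 1422 lower) with a virus-by-replicate term beside the block, 68 (62 higher, 6 lower) in the 4 wild-type libraries alone without the block, and 1142 (935 higher, 207 lower) with no filter on low values. Median-of-ratios scaling gave 1853 calls with 740 higher and 1113 lower, so that 39.9% rose instead of 74.9%. Chosen after seeing the data, that scaling without the block gave 214 (132 higher, 82 lower). Leaving out 1 library gave 397 to 2064 calls, 287 to 1491 higher and 110 to 675 lower, the lowest without replicate 2 of wild-type AdDlx3. The other alternatives stayed within 1.5 times. An arm left with 1 library was assumed to vary like the other groups. In the fits that held both genotypes, limma called their difference for 0 genes, with 39 to 1023 at an unadjusted p under 0.05. Of 187 named genes that were called, 0 changed sign in 20 alternatives; 142 lost the call without the block and 30 under scaling. Of 101 named genes not called, 41 changed sign in at least 1. The cause of these shifts was not tested. RPKM carry no read counts per gene, so the precision of low values is unknown.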
